A study of Rattus norvegicus with 16 samples.

Results

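Endothelial cells line blood and lymphatic vessels, and 41 genes known to mark them or to act on them were followed in the embryonic kidneys of a pair of rat strains. The genes were chosen by symbol, as the probe sets that carry exactly 1 of the 41 symbols. At gene level 35 of the 41 were measured, each by 1 probe set of 21371 in all. At exon level 37 were measured by 407 of 213067 probe sets, with Mmrn2 and Vwf measured at exon level only. The expression of Kdr, Pecam1, Ecscr and Eng was not analysed here, though Kdr, Ecscr and Eng entered the promoter counts below. The tested strain was MWF (Munich Wistar Frömter, which develops albuminuria), with 4 samples of whole male kidney at embryonic day E15.5. It was set against SHR (spontaneously hypertensive rat), with 4 samples of whole male kidney at embryonic day E16.0. Neither group carried a treatment or an engineered allele. Each sample gave 1 microarray of total RNA, deposited both as 1 value per gene and as 1 value per exon probe set, so these readouts share their arrays. Strain and embryonic day cannot be told apart here, and every difference is of both. Whether different animals gave the 4 samples is not stated in the labels, and the p-values therefore measure how far these samples spread, which may be technical.

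Embryonic kidney vessels form as the nephrons do: endothelial precursors in the renal mesenchyme assemble into capillaries, and some invade the young glomerulus. VEGF signals through receptor tyrosine kinases to call endothelial cells up, angiopoietins act through the TEK receptor to settle or to loosen the vessel wall, and transcription factors of the ETS and SOX families hold the endothelial programme. Several genes of the list are shared with other cells, such as Tal1 and Lmo2 with red cell precursors, Cd34, Icam2, Fli1 and Ets1 with blood cells, Lyve1 with macrophages, Angpt1 and Mcam with the cells around vessels, and Prox1 with liver and adrenal medulla.

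Values are log2 intensities, on which a step of 1 is a doubling, and differences are MWF minus SHR with their standard error. A gene was called where limma's p, adjusted by Benjamini-Hochberg over all probe sets of the table, was under 0.05. Array medians ran from 8.17 to 8.21 at gene level and from 7.93 to 7.99 at exon level, and no arrays held identical values. With intensities there is no depth of reading. The precision depends on the number of arrays and on how far each probe set varies between them. SHR replicate 2 stood apart from the other SHR arrays: the mean of 8 sympathoadrenal genes was 6.36 there, against 9.56 to 9.96 in SHR replicates 1, 3 and 4 and 6.37 to 7.53 in MWF. Results that rest on it are given with and without it. Of 10 kidney genes used to check the tissue, 7 were measured and none was called, with list means of 9.18 to 9.45 in MWF kidneys, against 9.03 to 9.26 in SHR kidneys. Of these 7, 6 lay above 0, with a median difference of 0.25, against 0.023 over all gene-level probe sets. Of the 7 listed genes taken to define endothelium, the 5 measured at gene level (Cdh5, Emcn, Esam, Tek and Tie1) had mean intensities above the median of all gene-level probe sets, as did 18 of the 35 endothelial genes.

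Endothelial genes were mostly lower in MWF kidneys by small amounts, and 6 of the 35 fell past the threshold. Differences lay below 0 for 33 of 35 genes and above 0 for Tal1 and Sox17, against 43.7% of all gene-level probe sets below 0. The 6 called genes were Angpt1, Clec14a, Icam2, Lyve1, Lmo2 and Cd34, all lower in MWF. They were 17.1% of the 35, where 3.40% of all probe sets were called lower, 3.18% higher and 6.58% either way. The median difference was -0.19 over the 35 genes against 0.023 over all probe sets. In 7 genes the strains did not overlap, the 6 called ones and Ets1, all with MWF below SHR, Ets1 by less than the digits printed here show. Over all probe sets 7.00% were separate in that direction, 7.36% in the other and 14.4% in either. An unadjusted p under 0.05 was reached by 15 of the 35, all lower in MWF, and by 22.4% of all probe sets. The measured genes taken to define endothelium, Cdh5, Emcn, Esam, Tek and Tie1, all lay below 0 and none was called. Of the called genes, Angpt1, Icam2, Lyve1, Lmo2 and Cd34 are among those named above as shared with other cells. In whole tissue, fewer endothelial cells, less RNA per cell and changes in other cells that share these genes cannot be told apart.

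**Figure D1:**
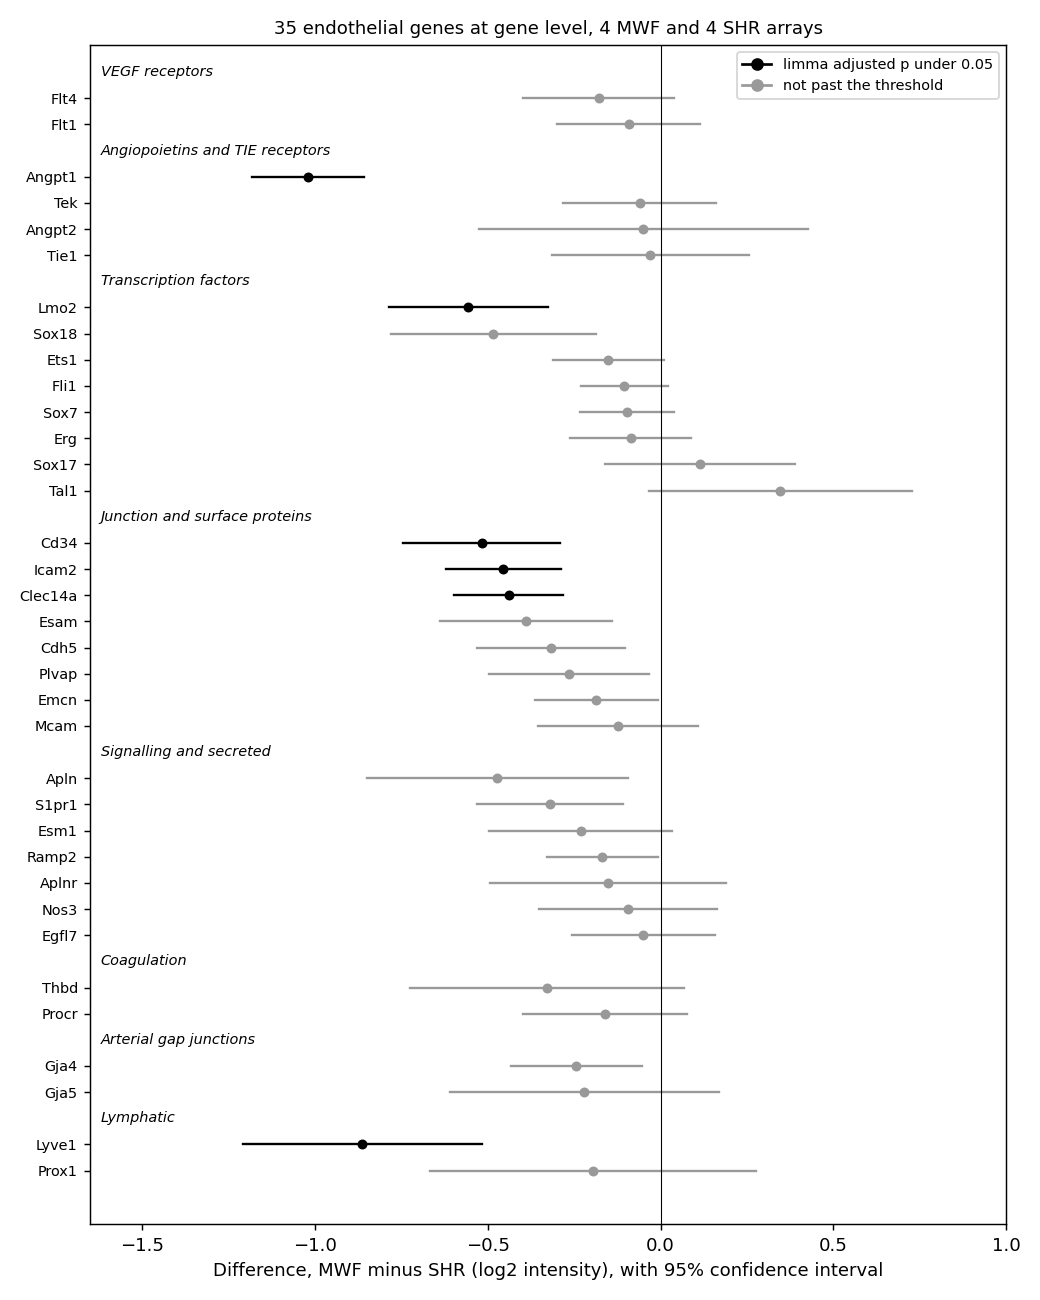
Differences between MWF and SHR at gene level (log2 intensity, x axis) with 95% confidence intervals for 35 endothelial genes, grouped by role, with called genes in black. Angpt1 lies furthest from 0 at -1.02, and of the 35 genes Tal1 and Sox17 have estimates above 0.

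Among the angiopoietins and their receptors, the activating ligand fell about 2.03-fold in MWF while the receptors and the second ligand passed no threshold. Angpt1, which activates TEK and is made largely by cells around the endothelium, had 8.16, 8.26, 8.14 and 8.07 in MWF replicates 1 to 4, against 9.32, 9.20, 9.08 and 9.10 in SHR replicates 1 to 4. Every MWF array lay below every SHR array, and SHR replicate 2 lay inside the range of the other SHR arrays. The means were 8.16 ± 0.076 in MWF and 9.18 ± 0.11 in SHR (SD, n = 4 each). The difference was -1.02 ± 0.072, with a 95% confidence interval from -1.18 to -0.86 (limma adjusted p = 6.83e-05).

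Tek, the receptor of the angiopoietins, had 8.91, 8.89, 8.86 and 9.15 in MWF, against 8.89, 8.86, 9.11 and 9.20 in SHR. The strains overlapped over most of their range. Its difference was -0.061 ± 0.098, and the interval from -0.28 to 0.16 leaves out a fall as large as that of Angpt1 (limma adjusted p = 0.762). Angpt2, which competes with Angpt1 at TEK in many settings, had 8.29, 7.70, 7.82 and 7.98 in MWF, against 8.15, 7.34, 8.26 and 8.24 in SHR. SHR replicate 2 lay below all other arrays, and the interval of the Angpt2 difference ran from -0.53 to 0.43 around -0.050 ± 0.21 (limma adjusted p = 0.921). Tie1, the second receptor of the family, differed by -0.030 ± 0.13 (limma adjusted p = 0.92), with its lowest array in SHR replicate 2.

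Both VEGF receptors that were measured overlapped between strains and passed no threshold. Flt1, which binds VEGF-A and limits its action on KDR, had 8.75, 8.87, 9.01 and 9.03 in MWF, against 9.04, 8.82, 9.01 and 9.16 in SHR. The difference was -0.092 ± 0.092 (limma adjusted p = 0.609). Flt4, the VEGF-C receptor of lymphatic and young blood vessels, had 8.00, 7.97, 8.25 and 8.08 in MWF, against 8.37, 8.09, 8.14 and 8.42 in SHR. Its values were highest in SHR replicates 1 and 4 and mixed below them, with a difference of -0.18 ± 0.097 (limma adjusted p = 0.318).

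Of the 8 transcription factors, Lmo2 fell, Sox18 missed the threshold and the others differed by 0.35 or less in size. Lmo2, an adaptor protein that partners TAL1 in blood and endothelial precursors, had 8.43, 8.49, 8.12 and 8.57 in MWF, against 8.85, 8.96, 8.94 and 9.10 in SHR. The strains did not overlap, and MWF replicate 3 was the lowest array. The difference was -0.56 ± 0.10, 1.47-fold (limma adjusted p = 0.0139). Tal1, its partner factor, ran the other way in its estimate, with 7.45, 7.48, 6.84 and 6.99 in MWF, against 7.18, 6.81, 6.73 and 6.65 in SHR. MWF replicates 1 and 2 were the highest, the strains overlapped, and the difference of 0.35 ± 0.17 did not pass (limma adjusted p = 0.269). Red cell precursors also use Tal1, and the 13 measured red cell genes lay above 0 in MWF without exception, with list means of 9.41, 9.63, 8.55 and 8.96 in MWF, against 8.28, 8.33, 7.81 and 7.90 in SHR. MWF replicates 1 and 2 were the highest for that list too, and its part in the Tal1 values was not tested. Lmo2, which red cell precursors share as well, was lower in MWF, opposite to that list.

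Sox18, which drives early vessel and lymphatic identity, had 8.19, 7.95, 7.88 and 7.88 in MWF, against 8.34, 8.16, 8.58 and 8.75 in SHR. SHR replicate 2 fell just below MWF replicate 1, and no other pair of arrays crossed. The difference was -0.48 ± 0.13 (limma adjusted p = 0.0624), and without SHR replicate 2 it was -0.58 and passed (limma adjusted p = 0.0147). Its relatives Sox7 and Sox17 gave -0.097 ± 0.060 and 0.11 ± 0.12, and neither passed. Ets1, an ETS factor also abundant in lymphocytes, ran from 9.32 to 9.41 in MWF, against 9.41 to 9.68 in SHR. The highest MWF and the lowest SHR array were equal to the digits printed, and SHR replicate 4 alone lay clearly above the rest. The Ets1 difference of -0.15 ± 0.071 did not pass (limma adjusted p = 0.249). Fli1 and Erg, ETS factors that keep the endothelial programme on, gave -0.10 ± 0.056 and -0.086 ± 0.078.

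Genes of the endothelial surface held 3 of the 6 calls, and all 8 that were measured lay below 0. Cd34, a sialomucin of capillaries and blood precursors, had 11.39, 11.26, 11.31 and 11.38 in MWF, against 11.92, 11.54, 11.96 and 11.98 in SHR. The strains did not overlap, and SHR replicate 2 was nearer to MWF than to the rest of its own strain. The difference was -0.52 ± 0.10, 1.43-fold (limma adjusted p = 0.018). The Cd34 call was lost on leaving out MWF replicate 2 or 3, or SHR replicate 1, 3 or 4, each on its own, at -0.51 to -0.47 (limma adjusted p from 0.0509 to 0.0564). Without SHR replicate 2 its difference was -0.62.

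Clec14a, a C-type lectin of new vessels, had 7.70, 7.55, 7.55 and 7.60 in MWF, against 8.06, 7.89, 8.11 and 8.09 in SHR. Every MWF array lay below every SHR array. Its difference was -0.44 ± 0.070 (limma adjusted p = 0.0065). Icam2, an adhesion protein of endothelium and leukocytes, had 6.88, 6.84, 6.71 and 6.95 in MWF, against 7.26, 7.19, 7.39 and 7.36 in SHR. The strains were again separate, with a difference of -0.46 ± 0.074 (limma adjusted p = 0.00728).

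The adhesion genes next in order missed the threshold with all arrays. Esam, a tight junction protein of endothelium, had 9.47, 9.32, 9.21 and 9.34 in MWF, against 9.68, 9.44, 9.82 and 9.96 in SHR. Cdh5, VE-cadherin of the adherens junction, had 10.46, 10.13, 10.33 and 10.13 in MWF, against 10.65, 10.40, 10.58 and 10.69 in SHR. In both genes SHR replicate 2 fell below MWF replicate 1, and no other SHR array overlapped with MWF. Esam differed by -0.39 ± 0.11 (limma adjusted p = 0.0716) and Cdh5 by -0.32 ± 0.096 (limma adjusted p = 0.0839). Plvap, which forms the diaphragms of fenestrae, gave -0.27 ± 0.10, Emcn, a sialomucin of capillaries and veins, gave -0.19 ± 0.079, and Mcam gave -0.12 ± 0.10.

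**Figure D2:**
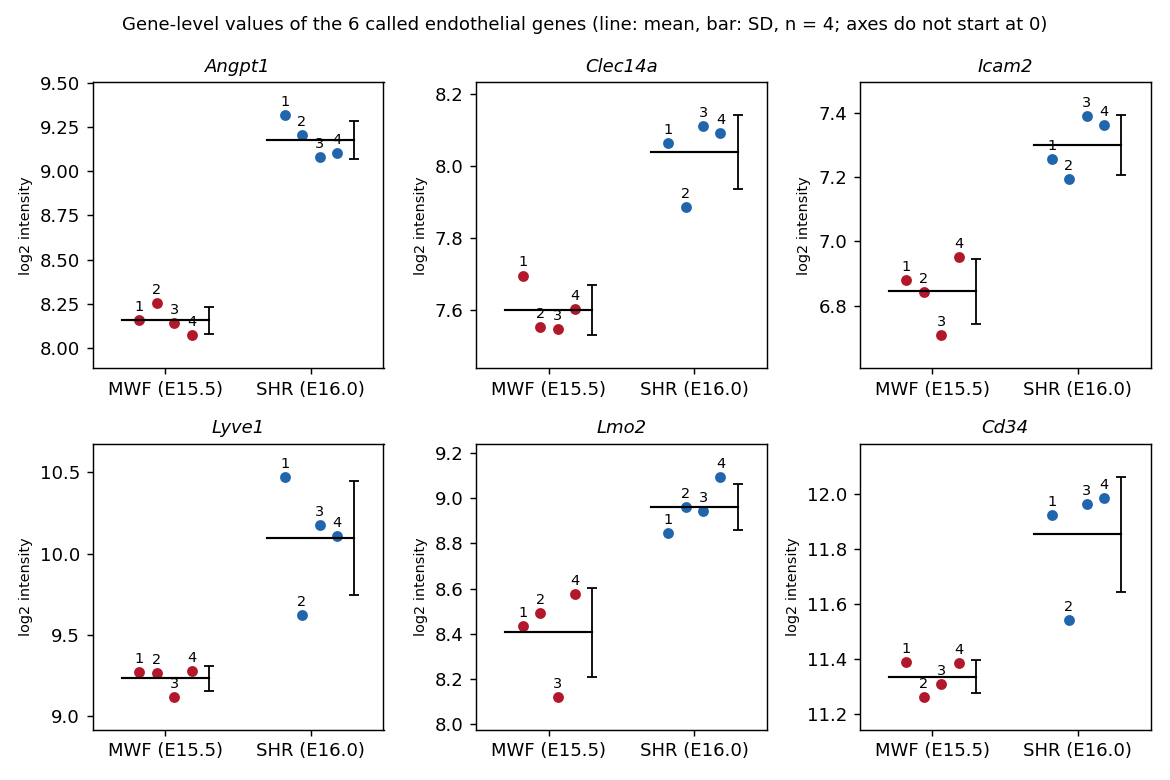
Gene-level log2 intensity of the 6 called endothelial genes in each array, MWF left and SHR right, with the mean (line) and SD (bar, n = 4), points numbered by replicate. In every panel the MWF arrays lie below the SHR arrays, and in the Cd34, Lyve1, Clec14a and Icam2 panels SHR replicate 2 is the SHR array nearest to MWF.

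Lyve1, the hyaluronan receptor of lymphatic endothelium and of some macrophages, fell 1.82-fold in MWF. It had 9.27, 9.27, 9.12 and 9.28 in MWF, against 10.47, 9.63, 10.18 and 10.11 in SHR. The MWF arrays were tightly grouped, and the lowest SHR value was that of replicate 2. The means were 9.23 ± 0.075 in MWF and 10.10 ± 0.35 in SHR (SD, n = 4 each), with a difference of -0.86 ± 0.15 (limma adjusted p = 0.0118). Without SHR replicate 2 the Lyve1 difference was -1.02. Of 12 leukocyte genes 10 lay below 0 as well, with list means of 7.13 to 7.46 in MWF, against 7.38 to 8.09 in SHR. Coro1a, Lcp1 and the macrophage gene Adgre1 were called lower, 25% of the list, where 3.40% of all probe sets were called lower. Cd68 and Itgam lay above 0, at 0.12 and 0.14, and neither was called. The part of leukocytes in the Lyve1, Icam2 and Cd34 differences was not tested.

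Prox1, the master factor of lymphatic identity, had 6.97, 6.70, 6.77 and 6.69 in MWF, against 7.19, 6.26, 7.20 and 7.28 in SHR. The other 3 SHR arrays lay above MWF and SHR replicate 2 below it, so that with all arrays the difference was -0.20 ± 0.21 (limma adjusted p = 0.635). Without that array it was -0.44 (limma adjusted p = 0.0117). The sympathoadrenal list followed the same order of SHR arrays as Prox1, which the adrenal medulla shares. In a fit that also held the mean of Th, Dbh, Chga and Chgb, genes of catecholamine cells, the Prox1 difference turned to 0.37 and did not pass (limma adjusted p = 0.0511). In that fit the sign also turned for other genes, such as Angpt2, Tie1, Gja5 and Tek. The part of adrenal medulla cells in the Prox1 values was not tested.

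Of the 7 signalling genes measured at gene level none passed with all arrays, and all lay below 0. S1pr1, the sphingosine 1-phosphate receptor that stabilises vessels, had 8.03, 7.86, 7.85 and 7.80 in MWF, against 8.24, 7.95, 8.31 and 8.31 in SHR. Only SHR replicate 2 overlapped with MWF, and the difference was -0.32 ± 0.094 (limma adjusted p = 0.0782). Apln, the tip cell peptide apelin, had 7.50, 7.66, 7.75 and 7.77 in MWF, against 8.52, 8.31, 7.64 and 8.09 in SHR. Here SHR replicate 3 fell among the MWF arrays while replicate 2 was among the highest, with a difference of -0.47 ± 0.17 (limma adjusted p = 0.132). Without SHR replicate 3 it was -0.64 and passed (limma adjusted p = 0.0208). That is the SHR array that overlapped with MWF, and of 16 alternatives this was the 1 in which Apln passed. Its receptor gene Aplnr gave -0.15 ± 0.15, Ramp2, the partner of the adrenomedullin receptor, -0.17 ± 0.071, and Esm1, a proteoglycan of tip cells, -0.23 ± 0.12. Nos3, endothelial nitric oxide synthase, and Egfl7, a secreted matrix protein, gave -0.094 ± 0.11 and -0.050 ± 0.092.

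Arterial and coagulation genes passed no threshold with all arrays. Gja4, connexin of arterial endothelium, had 7.98, 7.96, 8.02 and 8.06 in MWF, against 8.03, 8.20, 8.35 and 8.41 in SHR. One array crossed, SHR replicate 1 lying below the highest MWF array, and the difference was -0.24 ± 0.085 (limma adjusted p = 0.124). Without that array Gja4 differed by -0.31 and passed (limma adjusted p = 0.0485). Of 16 alternatives this was the 1 in which Gja4 passed. Gja5, the other arterial connexin, had 7.79, 7.21, 7.21 and 7.33 in MWF, against 7.60, 7.18, 7.84 and 7.81 in SHR. MWF replicate 1 lay near the upper SHR arrays and SHR replicate 2 below all MWF arrays, with a difference of -0.22 ± 0.17 (limma adjusted p = 0.499). Thbd, the anticoagulant receptor thrombomodulin, had 6.22, 5.95, 6.15 and 6.06 in MWF, against 6.29, 6.45 and 6.95 in SHR replicates 1, 3 and 4, with SHR replicate 2 inside the MWF range. Its mean lay at the 2.7th percentile of all probe sets, close to the dimmest signals, and the difference of -0.33 ± 0.18 did not pass (limma adjusted p = 0.311). Procr, the protein C receptor, had 7.69, 7.50, 7.22 and 7.47 in MWF, against 7.57, 7.53, 7.60 and 7.81 in SHR. The arrays were mixed, with a difference of -0.16 ± 0.11 (limma adjusted p = 0.411).

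Promoter sequence was available for 22 of the 41 genes, and the bases just before the start of the called genes Clec14a, Lyve1 and Cd34 are shown because these are the called genes that the table holds. Each is the 250 bases before the annotated start, from RefSeq on GRCr8, read 5′ to 3′ on the gene's strand. Clec14a lies at chr6:81619557-81619806 on the minus strand, Lyve1 at chr1:174410978-174411227 on the minus strand and Cd34 at chr13:109008536-109008785 on the plus strand. Capitals mark a match to a motif searched, on either strand.
Clec14a: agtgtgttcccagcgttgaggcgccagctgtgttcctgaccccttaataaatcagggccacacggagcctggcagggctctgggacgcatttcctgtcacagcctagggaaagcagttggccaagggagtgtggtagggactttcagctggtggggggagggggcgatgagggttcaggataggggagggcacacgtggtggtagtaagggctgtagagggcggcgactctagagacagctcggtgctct
Lyve1: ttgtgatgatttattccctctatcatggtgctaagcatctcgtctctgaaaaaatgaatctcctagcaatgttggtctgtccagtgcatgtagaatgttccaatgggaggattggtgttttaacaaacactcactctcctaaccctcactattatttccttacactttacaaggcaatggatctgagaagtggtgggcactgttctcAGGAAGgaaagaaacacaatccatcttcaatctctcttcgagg
Cd34: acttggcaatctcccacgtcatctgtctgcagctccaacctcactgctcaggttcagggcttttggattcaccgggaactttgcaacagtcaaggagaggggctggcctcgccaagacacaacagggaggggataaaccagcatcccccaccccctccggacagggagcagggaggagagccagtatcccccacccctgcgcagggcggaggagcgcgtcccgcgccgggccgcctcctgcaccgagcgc
The 1 match in these windows was AGGAAG, an ETS core, 43 bases before the start of Lyve1 and on the gene's own strand. A gene was counted if any of its promoter windows held the motif. Of the 22 genes, 15 (68.2%) held AGGAAG, against 31.3% of the 27457 genes in the table. The longer ETS form CCGGAAG was in none of the 22 and in 8.11% of all genes. The SOX letters AACAAT and ACAAAG were in 2 (9.09%) and 5 (22.7%) of the 22, against 11.2% and 17.2% of all. The FOX letters TAAACA were in 6 (27.3%), against 13.2%, and the GATA letters AGATAA in 1 (4.55%), against 10.9%. No searched motif overlaps another in these 3 windows, and a match describes the letters only.

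SHR replicate 2 was low for most endothelial genes. It was the lowest SHR array in 25 of 35 genes (71.4%), against 23.0% of all gene-level probe sets. SHR replicate 4 was the highest SHR array in 23 of 35 (65.7%), against 21.0% of all. MWF replicate 1 was the highest MWF array in 17 of 35 (48.6%), against 29% of all. The other 3 SHR arrays all lay above all MWF arrays in 16 of 35 genes (45.7%), against 11.6% of all. The median SD over the 35 genes was 0.107 in MWF and 0.172 in SHR, where over all probe sets it was 0.111 in MWF and 0.119 in SHR.

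Without SHR replicate 2, 11 of the 35 genes were called and all were lower in MWF, where 6.62% of all probe sets were called lower, 4.05% higher and 10.7% either way. The 6 genes called with all arrays were among them. The additional 5 were S1pr1 with -0.40 (limma adjusted p = 0.00896), Esam with -0.48 (limma adjusted p = 0.0106), Prox1 and Sox18, both given above, and Cdh5 with -0.38 (limma adjusted p = 0.0357). In each of these 5, SHR replicate 2 was the lowest SHR array, so leaving it out raised the SHR mean. The larger count is therefore no separate support. The median difference was then -0.26, and 34 of 35 genes lay below 0, with Tal1 above. Angpt1 moved little, to -1.01, and SHR replicate 2 lay within the range of the other SHR arrays in 8 of 35 genes, Angpt1 and Lmo2 among them.

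**Figure D3:**
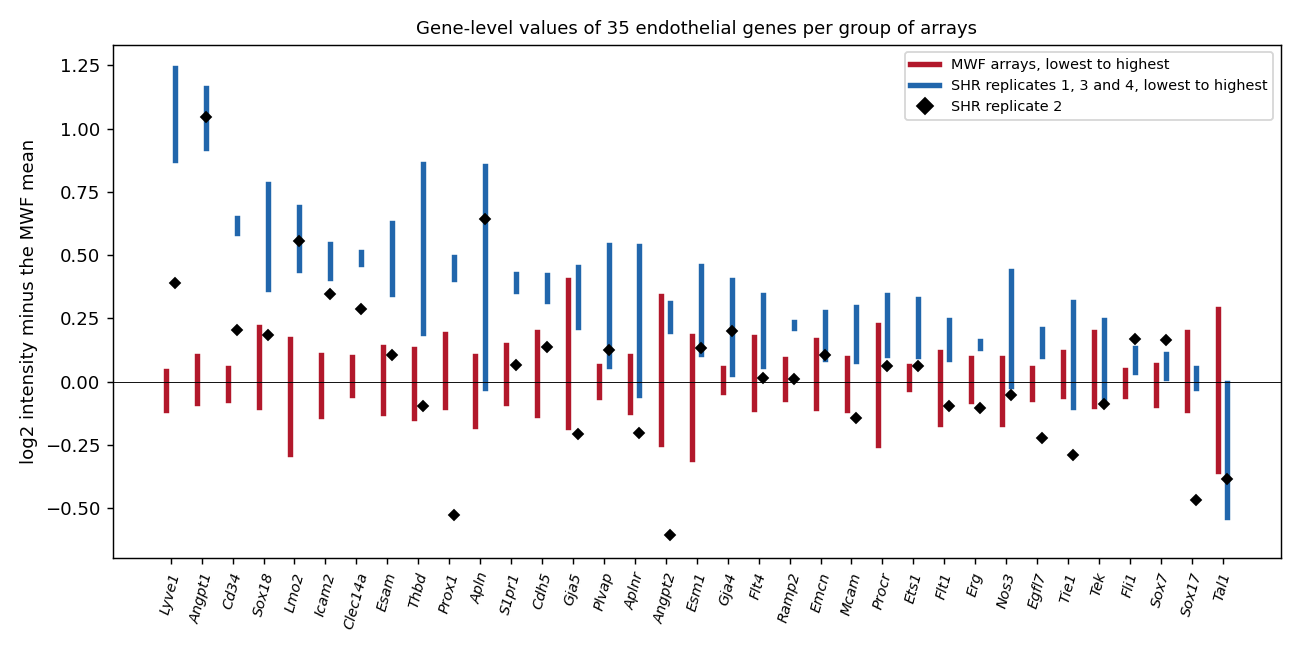
Range of gene-level values in the MWF arrays (red) and in SHR replicates 1, 3 and 4 (blue), with SHR replicate 2 as a diamond, for 35 endothelial genes on a scale of log2 intensity minus the MWF mean. The diamond is the lowest SHR value in 25 of 35 genes, and lies inside the blue range for Angpt1 and Lmo2.

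The same array was low for sympathoadrenal genes, so their mean was used as a covariate. Th, Dbh, Chga and Chgb averaged 8.14, 6.14, 6.29 and 6.30 in MWF, against 10.78, 6.03, 10.99 and 11.16 in SHR. With that mean in the fit, Angpt1 stayed called at -1.05 and the other 5 genes were no longer called, with limma adjusted p between 0.0678 for Clec14a and 0.108 for Cd34. Lmo2 kept nearly its full difference at -0.54 (limma adjusted p = 0.101), while Lyve1 was -0.53 and Cd34 -0.28. Angpt2 and Sox17 were then called higher in MWF, at 0.51 and 0.42 (limma adjusted p = 0.0332 and 0.0321). The median over the 35 genes was -0.079, with 21 of 35 below 0. The covariate is highest in 3 of 4 SHR arrays, so it overlaps with strain. MWF replicate 1, at 8.14, lies between those arrays and the rest.

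Exon-level probe sets pointed mostly the same way. Of 407 probe sets in 37 genes, 312 lay below 0 and 95 above, with a median of -0.17 against 0.011 over all exon-level probe sets. Of the 407, 20 were called (4.91%, against 1.93% of all), 19 lower (1.04% of all) and 1 higher (0.892% of all). An unadjusted p under 0.05 was reached by 95 of the 407, against 13.7% of all exon-level probe sets. The strains were separate in 58, 51.0 with MWF lower and 7.0 with MWF higher, against 4.59% of all exon-level probe sets with MWF lower, 4.24% with MWF higher and 8.83% either way. The count of 20 dropped to between 10 and 13 when any single MWF array, or SHR replicate 3 or 4, was left out. Over all exon-level probe sets 4112 were called with all arrays, and 2405 to 6210 on leaving out single arrays. The exon-level readout comes from the same arrays and is no independent repeat.

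Angpt1 was lower over its whole length as measured, with 8 of 8 probe sets below 0, from -1.46 to -0.69, and 6 of them called. Its probe set with the largest difference had 8.01, 8.31, 8.18 and 7.96 in MWF, against 9.68, 9.65, 9.40 and 9.57 in SHR. Cd34 had 8 of 8 probe sets below 0 with 4 called, and Lyve1 6 of 6 with 4 called. Lmo2 had 3 of 4 below 0 and none called, although the gene-level value was called.

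For Icam2 and Clec14a the probe sets did not move together. Icam2 had 4 of 7 below 0, and its 1 called probe set had 6.55, 6.43, 5.89 and 6.25 in MWF, against 8.09, 7.94, 7.61 and 8.16 in SHR. That difference was -1.67 ± 0.17 (limma adjusted p = 0.00152), while the other 6 Icam2 probe sets lay between -0.66 and 0.28. Clec14a had 4 of 5 below 0, 2 of them called at -0.88 and -0.66, and 1 at 0.16. Taking the median over a gene's probe sets on each array, Clec14a came to 0.14 ± 0.15 (limma adjusted p = 0.687), opposite in sign to its gene-level value. Icam2 stayed called by the same summary, at -0.68 ± 0.087 (limma adjusted p = 0.00133). The median of its 7 probe set differences was smaller in size, at -0.15. In MWF replicates 1 and 2 the median per array was 6.55 and 6.43, equal to the called probe set in the digits printed.

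Single probe sets stood out in genes with little change as a whole. One of 21 Tek probe sets had 9.43, 9.38, 8.99 and 9.50 in MWF, against 10.40, 9.97, 10.25 and 10.41 in SHR, with a difference of -0.93 ± 0.15 (limma adjusted p = 0.0151), and 12 of the 21 lay below 0. One of 12 Erg probe sets differed by -1.32 ± 0.25 (limma adjusted p = 0.0333) at a dim 4.96 in MWF and 6.28 in SHR. One of 12 Egfl7 probe sets was higher in MWF, with 10.70, 10.71, 10.95 and 10.91 in MWF, against 9.93, 9.79, 10.18 and 9.98 in SHR. It differed by 0.85 ± 0.11 (limma adjusted p = 0.00632), and 6 of the 12 Egfl7 probe sets lay below 0.

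Genes without a gene-level value showed no call. Vwf, the von Willebrand factor of endothelial storage granules, had 43 of 58 probe sets below 0, from -1.08 to 0.67, with a median of -0.21. Its median per array differed by -0.48 ± 0.26 (limma adjusted p = 0.364). Mmrn2, a matrix partner of CLEC14A, had 5 of 7 below 0, and its median per array differed by 0.027 ± 0.11 (limma adjusted p = 0.937). Over the 35 genes measured at both levels, the sign of the gene-level value and of the median per array was the same in 31, and opposite in Tie1, Angpt2, Erg and Clec14a. The median of the differences of single probe sets was below 0 in these 4 genes too, at -0.046, -0.087, -0.24 and -0.51, and in 35 of 37 genes. In the fit of the medians per array, 5 of the 37 genes were called lower (Angpt1, Icam2, Lmo2, Lyve1 and Cd34). Of all 16582 genes in that fit, 2.96% were called lower and 4.96% either way.

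**Figure D4:**
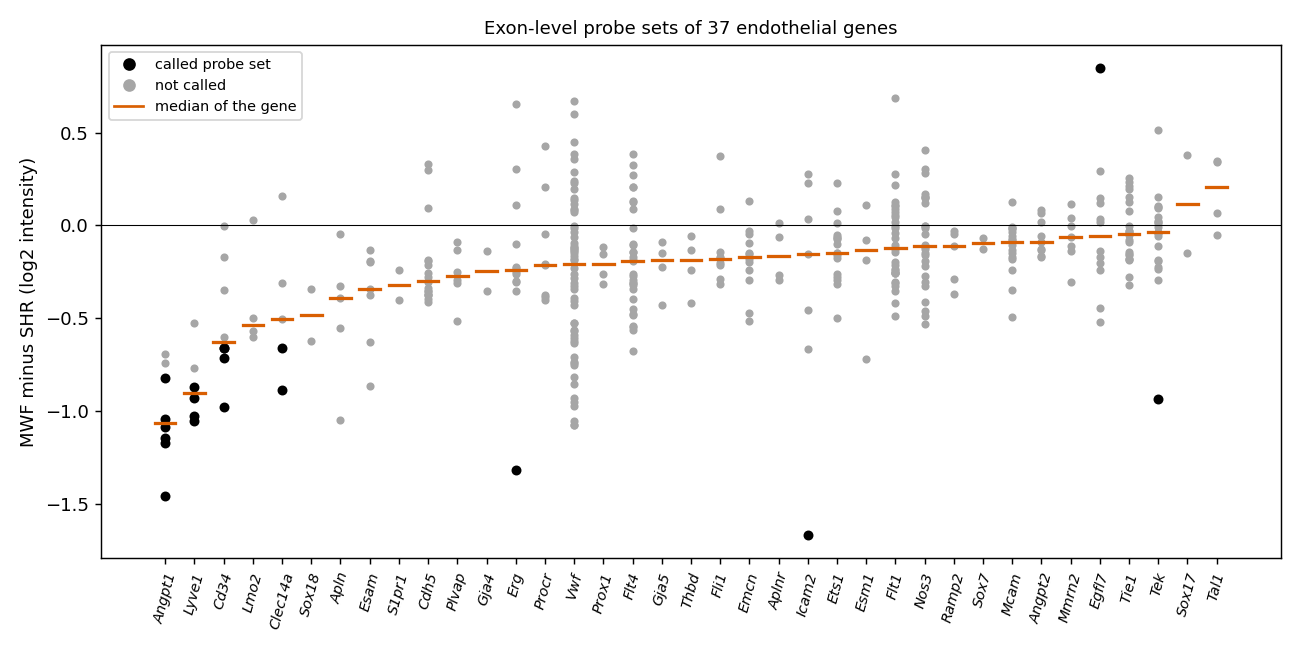
Differences between MWF and SHR (log2 intensity, y axis) of the 407 exon-level probe sets of 37 endothelial genes, ordered by the gene's median (orange), with called probe sets in black. Angpt1, Cd34 and Lyve1 have all points below 0, while single black points stand apart in Tek, Erg, Icam2 and Egfl7.

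Other genes of vessels, listed by pathway and not among the 41, leaned the same way. Of 79, 64 were measured at gene level, 55 lay below 0 and 9 above, with a median of -0.11, and 7 were called, all lower in MWF (10.9%, against 3.40% of all probe sets called lower). Igfbp3, a growth factor binding protein of young vessels and mesenchyme, had 8.58, 8.64, 8.68 and 8.71 in MWF, against 9.80, 9.25, 9.87 and 9.92 in SHR. Vcam1, the leukocyte adhesion protein, had 9.08, 9.06, 8.85 and 8.97 in MWF, against 9.53, 9.49, 9.64 and 9.71 in SHR. Both were separate between strains, Igfbp3 by -1.06 ± 0.14 (limma adjusted p = 0.00248) and Vcam1 by -0.60 ± 0.076 (limma adjusted p = 0.00205). The other called genes were Adm, the peptide adrenomedullin, at -0.87 ± 0.17, Cav1 of caveolae at -0.52 ± 0.092, Ehd4 at -0.40 ± 0.090, the lymphatic growth factor gene Vegfd at -0.39 ± 0.093 and the BMP inhibitor gene Smad6 at -0.34 ± 0.074, with limma adjusted p between 0.0117 and 0.0414. Next by p came Ece1 at -0.28, Pgf at 0.33, the Notch ligand gene Dll4 at -0.40, its target Hey2 at -0.50, Ramp3 at 0.25 and Sparc at -0.27, none of them called. In 14 of the 64 the strains were separate, 12 lower and 2 higher, the 2 being Pgf and Ramp3, against 7.00% of all probe sets lower and 7.36% higher. Vegfa, the main ligand of the VEGF receptors, gave -0.088 (limma adjusted p = 0.557). Without SHR replicate 2, 19 of the 64 were called, 18 lower and Pgf higher, where 6.62% of all probe sets were called lower and 4.05% higher. The count was 4 without MWF replicate 1, MWF replicate 2 or SHR replicate 3, and 3 without MWF replicate 3 or SHR replicate 4.

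Cells that share or surround vessels were followed by marker lists on the same arrays. The mean of the 35 endothelial genes was 8.32 to 8.45 in MWF, against 8.41 to 8.76 in SHR, with SHR replicate 2 at 8.41 inside the MWF range. Of 9 measured mural cell genes 8 lay below 0 and none was called, with means of 8.78 to 9.01 in MWF, against 8.76 to 9.30 in SHR, the lowest in SHR replicate 2. Of 9 stromal genes 8 lay below 0 and Lum was called, with means of 10.10 to 10.31 in MWF, against 10.22 to 10.65 in SHR. All 8 sympathoadrenal genes lay below 0 and none was called. Red cell genes ran the opposite way, with 6 of 13 called higher in MWF. Liver genes varied within both strains, from 7.19 to 9.62 in MWF, against 6.77 to 9.58 in SHR. Adrenal cortex genes stayed at 6.50 to 6.72 in MWF, against 6.41 to 6.56 in SHR. How far these lists carry the endothelial differences was not tested.

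**Figure D5:**
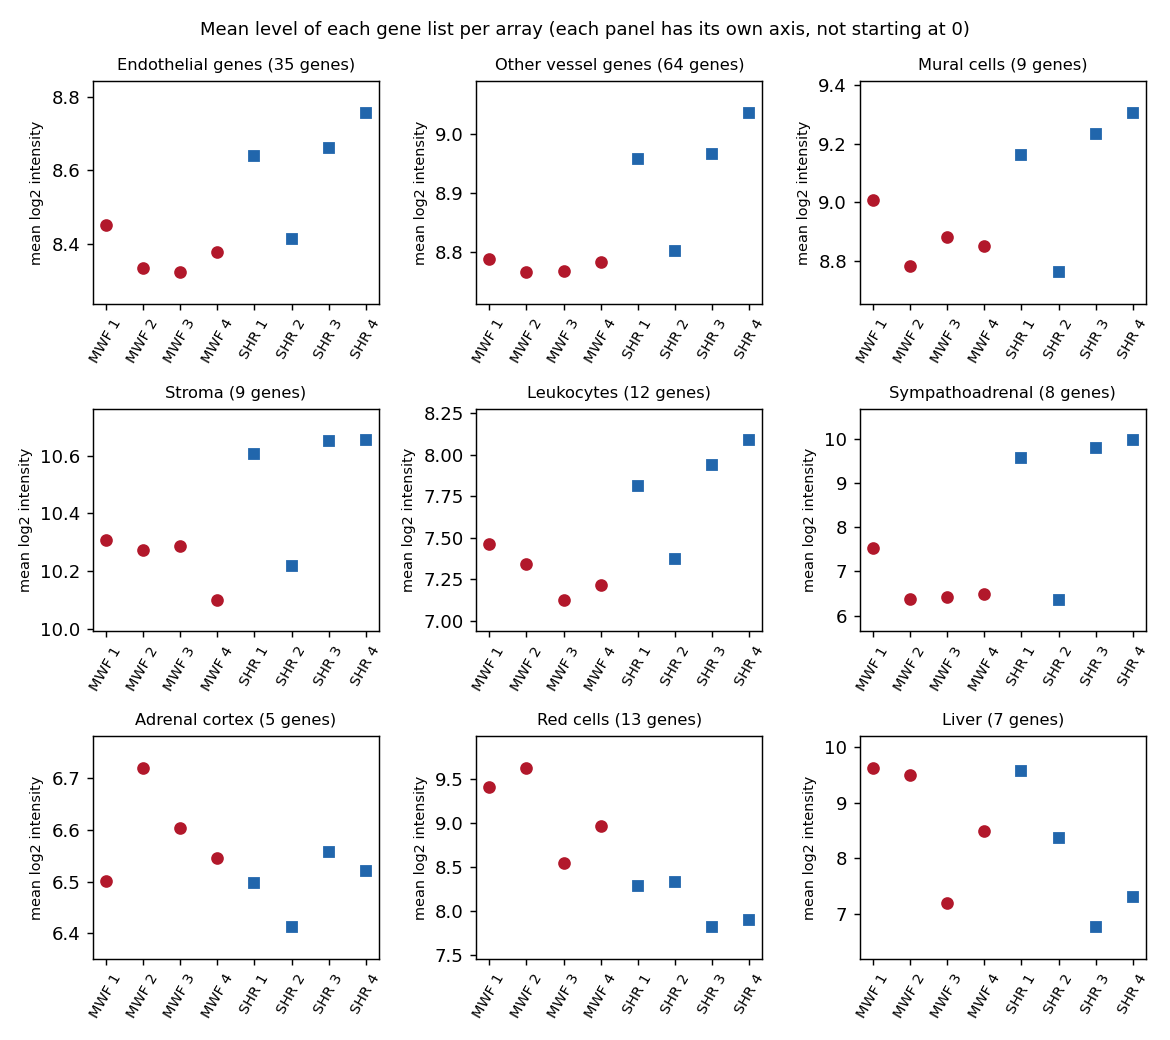
Mean log2 intensity of 9 gene lists in each array, MWF left (red) and SHR right (blue squares), each panel on its own axis. Endothelial, mural, stromal, leukocyte and sympathoadrenal means are lower in MWF and in SHR replicate 2 than in the other SHR arrays. Red cell means are higher in MWF.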

How the data were processed

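Total RNA of whole embryonic kidneys was measured on 8 arrays, 4 of MWF and 4 of SHR. The deposited values are log2 intensities in a gene-level and an exon-level table. Partek is named in the submitters' processing notes, with version, background correction, summarisation, normalization and array build not given in the sources used here. The near-equal array medians show that the authors had brought the arrays to a common level.

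Probe sets were named by the platform annotation, with symbols updated through RefSeq. At gene level 12941 had 1 symbol, 179 several and 8251 none, and at exon level 172924 had 1, 1661 several and 38482 none. Those without a single symbol entered the tests and stayed unnamed. Each table was fitted whole, without a filter on dim probe sets, by lmFit and eBayes of limma 3.58.1 (R 4.3.3), with a single term for strain. Simulated data with known changes gave back at gene level 69% of log2 changes of 0.5 and 98% of log2 changes of 1, with 15 false calls of 182, and 0% and 46% at exon level. In them 100 probe sets changed by each size, noise was alike in both strains, and no array stood apart as SHR replicate 2 does. The shares describe the fit under those settings and are no measure of its power in these data.

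The endothelial genes, the other lists, the motifs and the naming rule were chosen with earlier results of these data known. By that rule, values per array were given for called genes, for those with the smallest p in each role and for those without overlap, and other vessel genes were named by p. Angpt2, Tal1, Esam and Cdh5 were given per array outside the rule, chosen after their values were seen. Called means an adjusted p under 0.05. Alternatives were other normalizations, leaving dim probe sets out, another variance model, array weights, a replicate block, left-out arrays, a sympathoadrenal covariate and medians of exon-level probe sets. Promoters came from RefSeq (GRCr8). Protein sequences were not used here.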

Additional observations from a re-analysis of the deposited data

Results flagged for a closer look

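For each of the 35 genes at gene level, the highest and the lowest array of each strain was compared with its nearest neighbour by Dixon's ratio. Of 70 groups of 4 arrays 9 passed the 95% critical value, and chance gives about 1 in 20 groups. The genes share the same arrays, so the groups are not independent, and 1 low array can flag many genes. The count is therefore no test of an excess. In 6 of the 9 the array was SHR replicate 2, in each case low. Prox1 was at 6.26 there, against 7.19 to 7.28 in the other SHR arrays. Angpt2 was at 7.34, against 8.15 to 8.26, and Sox17 at 6.99, against 7.43 to 7.51. Cd34 was at 11.54, against 11.92 to 11.98, Erg at 7.97, against 8.20 to 8.23, and Ramp2 at 9.46, against 9.66 to 9.69. SHR replicate 4 was high for Nos3 at 8.53, against 8.04 to 8.10, and for Ets1 at 9.68, against 9.41 to 9.46. In MWF, Lyve1 was low in replicate 3 at 9.12, against 9.27 to 9.28. The cause of these values was not tested.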

How the results depend on the processing

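Angpt1 was called under all 17 alternatives, with limma adjusted p from 1.09e-05 to 0.0014. Of 578 differences of single genes under an alternative, 517 kept their sign and side of the threshold, 24 passed anew, 10 no longer passed and 27 changed sign. With array weights 10 of the 35 endothelial genes, 16 of the other vessel genes and 2397 of all probe sets were called. With the sympathoadrenal covariate these were 3, 2 and 517, with 7 of the endothelial exon-level probe sets and 1382 of all exon-level ones. Without both SHR replicate 2 and MWF replicate 1 they were 14, 19 and 2180, with 39 endothelial exon-level probe sets. Without dim probe sets 872 were called, and Clec14a and Icam2 are not in that table, while Esam and Sox18 were called in it. Medians of exon-level probe sets gave 822. Leaving out 1 array gave 5 to 11 endothelial genes, 3 to 19 other vessel genes, 775 to 2279 of all probe sets, 10 to 30 endothelial exon-level probe sets and 2405 to 6210 of all exon-level ones. The high end was without SHR replicate 2 throughout, and the median endothelial difference ran from -0.26 to -0.15.  The labels do not say that a replicate number marks anything shared, and the deviations of same-numbered arrays correlated weakly, at 0.098 to 0.284, with 5 of 8 arrays correlating best with their own number, so the numbers were not taken as pairs. With the replicate number as a block, 6 endothelial and 9 other vessel genes and 1312 of all probe sets were called, and 10 endothelial exon-level probe sets and 2172 of all. Signs turned, for genes not called with all arrays except Clec14a, as follows. With the covariate the differences were 0.51 for Angpt2, 0.37 for Prox1, 0.24 for Tie1, 0.20 for Gja5, 0.14 for Egfl7, 0.14 for Aplnr, 0.098 for Mcam, 0.057 for Erg, 0.045 for Tek, 0.035 for Nos3, 0.028 for Thbd and 0.0015 for Flt1. Leaving out 1 array, Angpt2 ran from -0.27 to 0.038, Tie1 from -0.14 to 0.065, Nos3 from -0.14 to 0.020, Egfl7 from -0.14 to 0.0025, Tek from -0.13 to 0.0006 and Sox17 from -0.0053 to 0.17. Sox17 was -0.071 without both SHR replicate 2 and MWF replicate 1. By exon-level medians Clec14a was 0.14, Erg 0.059, Angpt2 0.028 and Tie1 0.013. The cause of these changes was not tested. A mean over several gene-level probe sets gave no value, since each measured gene had 1.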
